A study of Mus musculus with 13 samples.

Results

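The Notch pathway was followed in 4T1-Thy1.1 cells through 10 genes of the 13222 listed in the series. They are the receptors *Notch1*, *Notch2* and *Notch3*, the ligands *Jag1* and *Jag2*, the receptor protease *Adam10*, the nuclear genes *Rbpj*, *Maml3* and *Ncor1*, and the target gene *Hes1*. They were taken by name, as genes of the pathway present in the table. The rule used no measured value, but the genes were chosen with earlier results of these data known, so how many of them were called is not that of a blind choice. 4T1 is a mouse mammary carcinoma line used as a model of triple-negative breast cancer, and 4T1-Thy1.1 is the same line carrying a Thy1.1 transgene, which the control cells carry too. Cultured wells received no agent (control, n = 3), 200 ng/mL doxorubicin (DOX, n = 4), 200 ng/mL DOX with 25 ng/mL recombinant mouse IL-17A (DOX+IL-17A, n = 3) or only IL-17A at 25 ng/mL (IL-17A, n = 3), each for 48 hours. DOX is an anthracycline that damages DNA, IL-17A is a cytokine made mainly by T cells, and the study asked whether IL-17A alters what DOX does to these cells. All groups are of a single cell line, and the labels do not say that replicates of a group came from separate cultures on separate days, so p-values measure the spread between these libraries, which may be technical.

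Notch receptors are single-pass membrane proteins that are cut and released when a ligand on a neighbouring cell pulls on them. ADAM10 makes the cut outside the membrane, the gamma-secretase complex makes the next cut inside it, and the freed intracellular domain enters the nucleus. There it binds RBPJ, displaces corepressors such as NCoR and recruits a Mastermind-like coactivator, and genes such as *Hes1* are transcribed. In mammary epithelium and in breast carcinoma the pathway is known for its part in cell fate, in luminal differentiation and in signalling between tumour cells that carry Jagged ligands.

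Values are reads per gene as counts per library size after TMM correction (CPM), and are called normalized values here. Only the 3' end of each transcript was sequenced, so a long transcript gives no more reads than a short one. Normalized values of different genes are set side by side on this ground. Other differences between genes in how fully their reads are counted were not checked. Libraries held 4445592 to 16930600 reads on listed genes, and 3 reads, taken as the smallest detectable value, correspond to 0.183 to 0.613 normalized units. This limit covers counting error only. All 6 markers of mammary carcinoma epithelium were detected, and their summed normalized value lay between 1932 and 2248 in control, between 1706 and 2050 with IL-17A, between 935 and 1034 with DOX and between 816 and 1033 with DOX+IL-17A. For *Thy1*, reads of the transgene and of the mouse gene cannot be told apart. It was 179 in control replicate 1, 78.8 and 79.9 in the other control libraries and between 63.6 and 104 in the treated groups. Of the immune markers, *Ptprc*, *Csf1r* and *Cd68* were analysed. Their sum was 18.3 to 20.7 in control, 27.1 to 50.4 with DOX, 12.2 to 19.4 with DOX+IL-17A and 10.5 to 15.2 with IL-17A. *Ptprc* alone was 2.45 to 3.57 with DOX+IL-17A, against 0.0609 to 1.52 in control, 0.644 to 1.42 with DOX and 0 to 0.314 with IL-17A. The 4 fibroblast markers analysed summed to 97.8 in control replicate 1 and to between 23.8 and 64.8 in the other libraries. The 1 liver marker lay between 0 and 2.25, and no endothelial marker was analysed here. DOX replicate 1 stood apart in 7 skeletal muscle markers, with a sum of 246 against 8.84 to 41.1 in the other libraries. Its 3 red blood cell markers summed to 66.5, against 0 to 14.4 in the others. Of these, *Hba-a1* (18.8 against 0 to 2.31) and *Hba-a2* (43.4 against 0 to 9.14) stood apart, while *Alas2* was 4.35 against 0 to 3.38. Control replicate 1 stood apart on the second principal component, at 74.7, where the other libraries lay between -42.9 and 23.4. Without either of these libraries, 6 of the 9 members tested were still called in DOX against control and 6 in DOX+IL-17A against control. Shares of all genes tested called without them are not given here. The part of these marker differences in the results was not tested.

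With DOX the ligand gene *Jag1* rose, and the receptor gene *Notch1*, the protease gene *Adam10*, and the nuclear genes *Rbpj*, *Maml3* and *Ncor1* fell. The mean normalized value of *Jag1* was 3.32 times that of control, while the means of the genes that fell were 1.86 to 3.26 times higher in control than with DOX. Of the 10 members, 9 passed the filter on low reads, and 6 of these were called (1 higher, 5 lower) at an adjusted p under 0.05 with limma on log2(value + 1). Over all 12319 genes tested in DOX against control, 22.1% were called, 12.4% higher and 9.71% lower. The groups did not overlap for 7 of the 9 members, against 33.7% of all genes tested. Of the 6 called, 4 also changed by over 2-fold on the log2(value + 1) scale, as did 15.3% of all genes tested, and *Notch1* and *Ncor1* did not. *Notch3* did not pass the filter and is given by its values only. In these bulk samples fewer cells of a kind and less RNA per cell cannot be told apart.

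**Figure D1:**
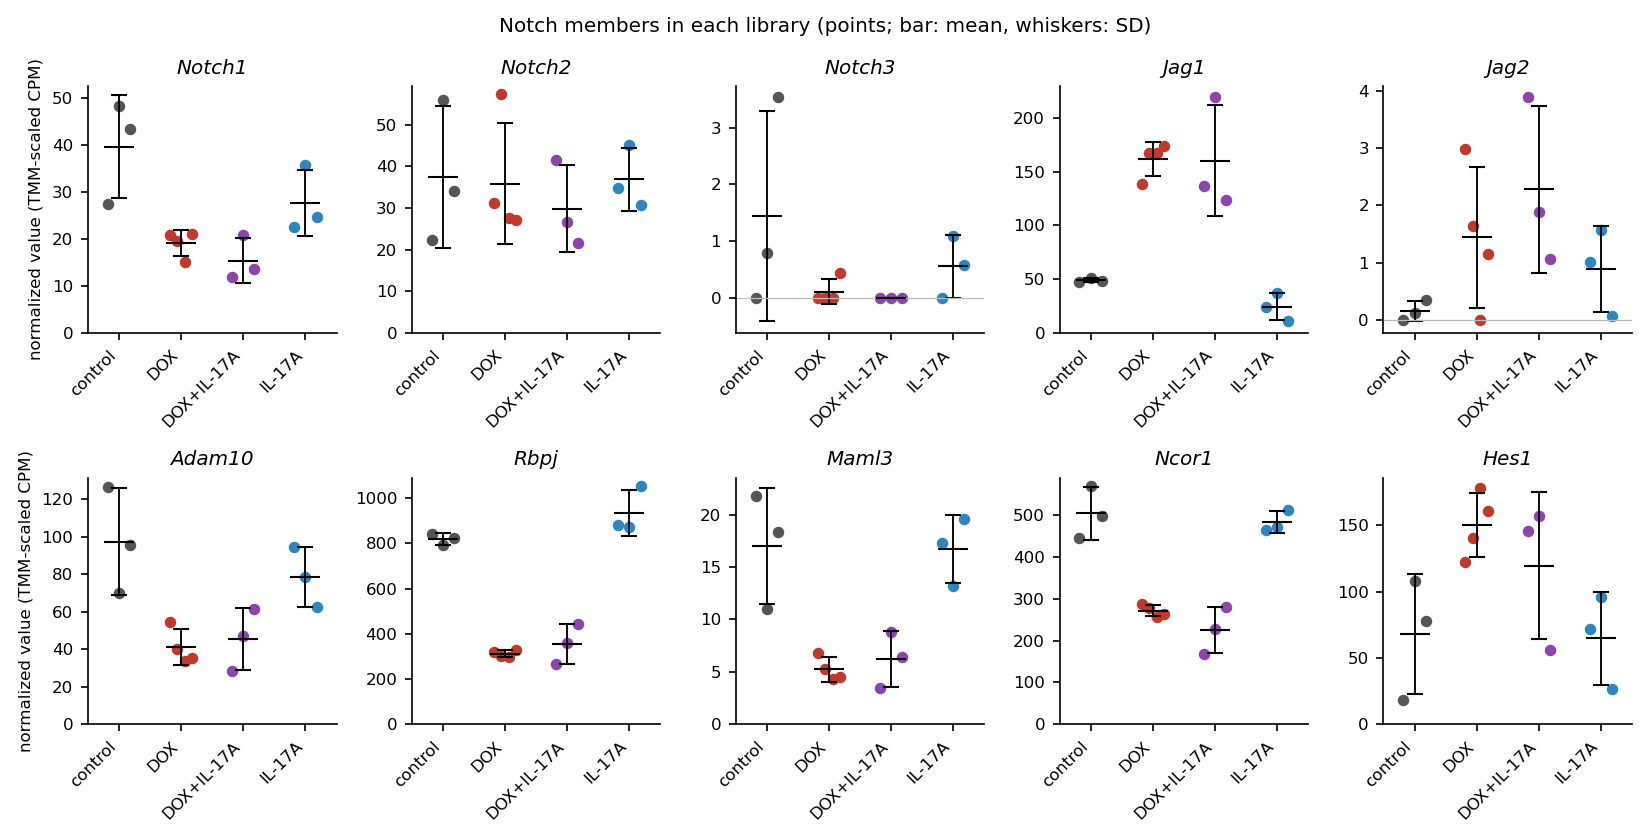
Normalized value (vertical axis, TMM-scaled CPM) of the 10 Notch members in the 13 libraries, with a panel for each gene. Points are libraries, the bar is the group mean and the whiskers are the SD (n = 3, 4, 3 and 3 from left to right). The libraries with DOX lie above every control library for *Jag1* and below every control library for *Notch1*, *Adam10*, *Rbpj*, *Maml3* and *Ncor1*.

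The DNA in front of the start site is shown for 4 of these genes, the ligand that rose and a receptor, protease and nuclear gene that fell, because they changed with DOX and RBPJ and the HES repressors are known to bind short motifs near genes. The stretches come from RefSeq windows on GRCm38.p6 (mm10), which run from 250 bases before to 50 bases after a start site. They are trimmed to the part that holds no annotated exon, and are written 5′ to 3′ on the strand of the gene. Capitals mark a match to the core bound by RBPJ (TGGGAA, or TTCCCA on the other strand) or to the N-box bound by HES repressors (CACNAG, or CTNGTG on the other strand).
Jag1: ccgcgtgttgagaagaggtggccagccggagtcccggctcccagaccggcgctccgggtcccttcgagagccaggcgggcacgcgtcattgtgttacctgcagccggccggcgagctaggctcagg
Notch1: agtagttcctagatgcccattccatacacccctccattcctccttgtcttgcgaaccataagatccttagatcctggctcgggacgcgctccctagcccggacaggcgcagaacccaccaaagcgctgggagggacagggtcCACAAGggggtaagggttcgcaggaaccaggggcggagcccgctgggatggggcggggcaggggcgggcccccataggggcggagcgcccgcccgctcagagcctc
Adam10: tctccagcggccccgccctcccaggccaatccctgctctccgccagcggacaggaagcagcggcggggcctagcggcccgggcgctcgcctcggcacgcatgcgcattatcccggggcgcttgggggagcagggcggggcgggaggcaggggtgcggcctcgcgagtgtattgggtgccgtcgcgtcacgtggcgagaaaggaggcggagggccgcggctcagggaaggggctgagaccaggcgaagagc
Rbpj: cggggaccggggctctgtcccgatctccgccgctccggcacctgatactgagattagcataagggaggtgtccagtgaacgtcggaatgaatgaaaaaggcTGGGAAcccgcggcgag

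The *Jag1* stretch is chr2:137116645-137116770 on the minus strand, of 126 bases, and lies just in front of the annotated gene. It holds neither motif and its GC content is 70.6%. The *Notch1* stretch is chr2:26503825-26504072 on the minus strand, inside the span of the longest gene model, and its N-box match begins 108 bases before the RefSeq start. The *Adam10* stretch is chr9:70678732-70678981 on the plus strand, with a GC content of 74.0% and neither motif. The *Rbpj* stretch is chr5:53590096-53590213 on the plus strand, also inside the longest gene model, and its core match begins 149 bases before the start. RefSeq windows were at hand for 9 of the 10 members (11 windows, as *Rbpj* and *Ncor1* have more than 1 start). The RBPJ core occurred in 4 of these 11 windows and in 25.6% of all 32851 mouse windows, and the N-box in 3 of 11 and in 42.5% of all windows. A match in such letters is a description of the sequence and not a bound site.

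*Jag1* encodes the Jagged ligand Jagged1 and lies at chr2:137081456-137116644 on the minus strand of mm10. Its normalized value was 47.2, 50.8 and 48.4 in the control libraries and 138, 168, 167 and 174 in the DOX libraries. It was 137, 220 and 124 with DOX+IL-17A, and 24.2, 36.9 and 11.3 with IL-17A alone. The control libraries were within a narrow band, every library with DOX was above them and every library with IL-17A alone was below them. The means were 48.8 ± 1.85 (SD, n = 3) in control and 162 ± 16.1 (SD, n = 4) with DOX (log2 fold change 1.70, SE 0.30, adjusted p = 0.00135, limma). With DOX+IL-17A the mean was 160 ± 51.8 (SD, n = 3) (log2 fold change against control 1.65, SE 0.32, adjusted p = 0.00356). Both calls held in all 10 alternative settings and in all 13 fits without a library. An exact permutation test of the DOX and control values, 2-sided, gave p = 0.0571, and 4 against 3 libraries cannot give a smaller value (0.1 for 3 against 3).

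*Jag2* encodes the other Jagged ligand and lies at chr12:112907819-112929776 on the minus strand. It was near the limit of detection. The control libraries held 0, 2 and 3 reads, and the DOX libraries 37, 15, 0 and 13, or normalized values of 2.98, 1.64, 0 and 1.16. With DOX+IL-17A the normalized values were 3.89, 1.89 and 1.06, and with IL-17A alone 1.01, 1.57 and 0.082. The 3 DOX+IL-17A libraries were above the 3 control libraries, and the DOX libraries overlapped them through replicate 3. Neither difference from control passed the test (adjusted p = 0.165 with DOX and 0.0605 with DOX+IL-17A, limma), and with so few control reads no fold is given. With DESeq2 the adjusted p for DOX+IL-17A was 0.0273, and it was 0.0397 in limma without DOX replicate 3. *Jag1* made up 95.9% to 100% of the summed Jagged value in every library.

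*Notch1* encodes the most studied of the mammalian receptors and lies at chr2:26457903-26516663 on the minus strand. Normalized values were 27.4, 48.3 and 43.4 in control and 20.8, 19.5, 15.1 and 21.1 with DOX. They were 11.9, 20.8 and 13.5 with DOX+IL-17A and 22.6, 35.8 and 24.6 with IL-17A. Each library with DOX was below each library without it, while the IL-17A and control libraries overlapped. The means were 39.7 ± 10.9 (SD, n = 3) in control and 19.1 ± 2.78 (SD, n = 4) with DOX (log2 fold change -0.99, SE 0.28, adjusted p = 0.0207, limma). With DOX+IL-17A the mean was 15.4 ± 4.74 (SD, n = 3) (log2 fold change against control -1.31, SE 0.30, adjusted p = 0.00839). The call with DOX was lost without control replicate 3 (adjusted p = 0.0722), control replicate 5 (0.0751) or DOX replicate 3 (0.0633), and with libraries scaled by size alone (0.0567). The call with DOX+IL-17A was lost in a fit of only the groups compared (adjusted p = 0.0649).

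*Notch2* lies at chr3:98013527-98150361 on the plus strand and encodes a receptor built like Notch1. Its normalized value was 22.3, 56.1 and 34.2 in control and 31.1, 57.5, 27.7 and 27.1 with DOX. In the DOX+IL-17A libraries 41.5, 26.6 and 21.5 were measured, and in the IL-17A libraries 34.8, 45.3 and 30.7. The groups overlapped throughout. The log2 fold change was -0.04 with DOX (95% confidence interval -0.76 to 0.68, adjusted p = 0.947, limma) and -0.27 with DOX+IL-17A (-1.04 to 0.49, adjusted p = 0.633). A fall of up to 0.76 with DOX and of up to 1.04 with DOX+IL-17A, on the log2 scale, is within these intervals.

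*Notch3*, at chr17:32120820-32166852 on the minus strand, was detected in few libraries. Control libraries held 0, 13 and 30 reads (normalized values 0, 0.792 and 3.54) and IL-17A libraries 0, 7 and 7 reads (0, 1.1 and 0.574). With DOX, 3 libraries held 0 reads and the other 5 reads (0.447), and the 3 libraries with DOX+IL-17A held 0 reads. A count of 0 allows a value of up to 0.183 to 0.613 units depending on the library. As 1 control library and 1 IL-17A library also held 0 reads, the groups overlapped, and no test was made.

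The receptors and the ligands thus stood in different proportion in the groups. *Notch1* made up 51.5% ± 4.89 (SD, n = 3, range 45.9% to 55.1%) of the summed receptor value in control. Its share was 36.0% ± 7.87 (SD, n = 4, range 25.3% to 43.4%) with DOX, 34.8% ± 11.3 (SD, n = 3, range 22.2% to 43.8%) with DOX+IL-17A, and 42.4% ± 2.56 (SD, n = 3, range 39.4% to 44.1%) with IL-17A. The summed Jagged value was 0.678 ± 0.242 times (SD, n = 3) the summed receptor value in control, between 0.484 and 0.949, and 0.371 ± 0.145 times (SD, n = 3) with IL-17A, between 0.204 and 0.468. It was 3.11 ± 0.791 times (SD, n = 4) with DOX, between 2.20 and 3.91, and 3.63 ± 1.02 times (SD, n = 3) with DOX+IL-17A, between 2.64 and 4.68. In every control and IL-17A library receptor reads were more numerous than Jagged reads, and in every library with DOX Jagged reads were more numerous. These ratios restate the values of the genes above and were not tested.

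**Figure D2:**
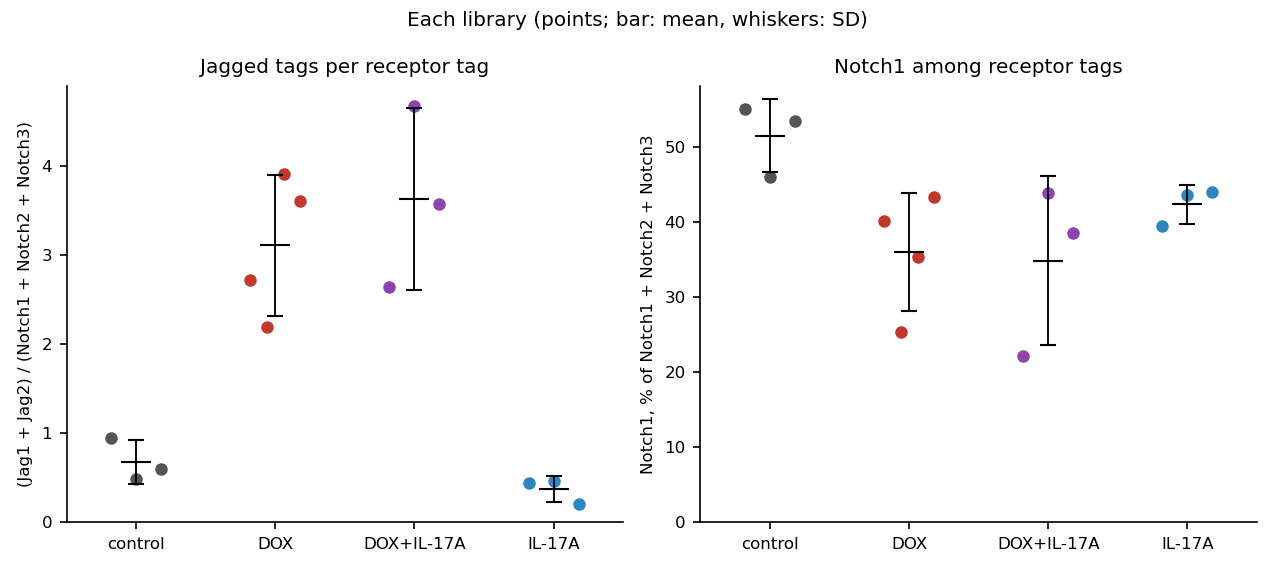
Left, summed normalized value of *Jag1* and *Jag2* divided by that of *Notch1*, *Notch2* and *Notch3* (a ratio without unit). Right, *Notch1* in percent of the summed receptor value. Points are libraries, the bar is the group mean and the whiskers are the SD. The ratio lies between 0.204 and 0.949 in the 6 libraries without DOX and between 2.20 and 4.68 in the 7 libraries with it.

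*Adam10*, at chr9:70678997-70780229 on the plus strand, encodes the metalloprotease that cuts ligand-bound receptors outside the membrane. Normalized values were 127, 69.8 and 95.4 in control and 54.6, 39.96, 33.7 and 35.3 with DOX. They were 28.4, 46.9 and 61.1 with DOX+IL-17A and 94.2, 78.4 and 62.5 with IL-17A. All DOX libraries were below all control libraries, and the highest DOX+IL-17A library was just below the lowest library without DOX. The log2 fold change was -1.21 with DOX (SE 0.28, adjusted p = 0.00727, limma) and -1.1 with DOX+IL-17A (SE 0.30, adjusted p = 0.0208). The second call was lost without DOX+IL-17A replicate 2 (adjusted p = 0.0939) or control replicate 5 (0.0566) and in a fit of only the groups compared (0.0948).

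*Rbpj*, at chr5:53466152-53657362 on the plus strand, encodes the DNA-binding protein through which all Notch receptors act, and had the highest level of the 10 members. Its normalized value was 842, 792 and 826 in control, 320, 301, 299 and 328 with DOX. In the DOX+IL-17A libraries 264, 357 and 444 were measured, and in the IL-17A libraries 880, 872 and 1053. The libraries with and without DOX were far apart and the spread within the control and DOX groups was small. The means were 820 ± 25.6 (SD, n = 3) in control and 312 ± 14.3 (SD, n = 4) with DOX (log2 fold change -1.39, SE 0.19, adjusted p = 0.000181, limma). With DOX+IL-17A it was 355 ± 89.8 (SD, n = 3) (log2 fold change against control -1.24, SE 0.20, adjusted p = 0.000971). Both calls held in all 10 alternative settings and in all 13 fits without a library.

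*Maml3*, at chr3:51685907-52105076 on the minus strand, encodes a Mastermind-like coactivator of the Notch and RBPJ complex. Normalized values were 21.8, 10.96 and 18.4 in control, 6.84, 5.26, 4.33 and 4.47 with DOX. In the DOX+IL-17A libraries 3.48, 8.84 and 6.43 were measured, and in the IL-17A libraries 17.3, 13.2 and 19.6. Every library with DOX was below every library without it. The log2 fold change was -1.50 with DOX (SE 0.34, adjusted p = 0.00621, limma) and -1.34 with DOX+IL-17A (SE 0.36, adjusted p = 0.0203). The second call was lost without DOX+IL-17A replicate 2 (adjusted p = 0.0853) or control replicate 5 (0.0668) and in a fit of only the groups compared (0.108).

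*Ncor1*, at chr11:62316426-62458541 on the minus strand, encodes the corepressor NCoR1, which is bound by RBPJ when no Notch fragment is present and by many nuclear receptors. Its normalized value was 444, 570 and 499 in control, 288, 277, 257 and 264 with DOX. In the DOX+IL-17A libraries 169, 228 and 279 were measured, and in the IL-17A libraries 464, 472 and 513. The groups with and without DOX did not overlap. The log2 fold change was -0.88 with DOX (SE 0.19, adjusted p = 0.00403, limma) and -1.18 with DOX+IL-17A (SE 0.20, adjusted p = 0.00131). Both calls held in all 13 fits without a library.

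*Hes1*, at chr16:30064384-30067796 on the plus strand, encodes a basic helix-loop-helix repressor and is a direct target of Notch in many tissues, though other pathways also act on it. Normalized values were 18.4, 108 and 77.9 in control and 122, 141, 178 and 160 with DOX. They were 145, 157 and 56.1 with DOX+IL-17A and 71.8, 95.6 and 26.7 with IL-17A. All 4 DOX libraries were above the 3 control libraries, and DOX+IL-17A replicate 5 lay among the libraries without DOX. The means were 68.1 ± 45.5 (SD, n = 3) in control and 150 ± 24.1 (SD, n = 4) with DOX. The log2 fold change was 1.44 (95% confidence interval 0.33 to 2.56) and did not pass the test (adjusted p = 0.0606, limma). Control replicate 1, which stood apart on the second principal component, had the lowest value of all, and without it the log2 fold change was 0.69 (adjusted p = 0.254). Without control replicate 3 it was 1.94 (adjusted p = 0.0185), without IL-17A replicate 5 the adjusted p was 0.0397, and with libraries scaled by size alone the log2 fold change was 1.62 (adjusted p = 0.0477). With DOX+IL-17A it was 0.99 (adjusted p = 0.236), and 1.47 (adjusted p = 0.109) without DOX+IL-17A replicate 5.

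DOX+IL-17A against control, which shares the 3 control libraries with DOX against control, gave calls for 6 of the 9 members tested (1 higher, 5 lower). Over all genes tested, 17.7% were called with DOX+IL-17A, 9.37% higher and 8.34% lower. Its groups did not overlap for 7 of the 9 members tested, against 30.1% of all genes tested. All 6 members called with DOX+IL-17A changed by over 2-fold on the log2(value + 1) scale, and 12.9% of all genes tested were called with such a change.

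**Figure D3:**
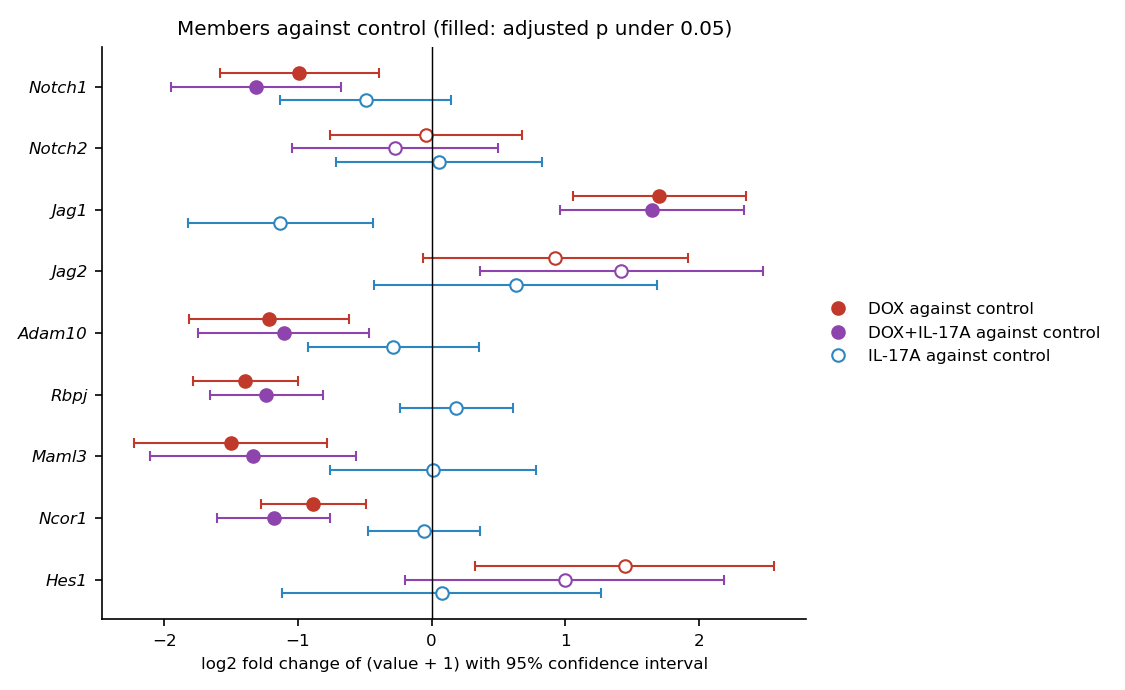
Log2 fold change of (normalized value + 1) against control, horizontal axis, for the 9 members tested, with DOX (red), DOX+IL-17A (purple) and IL-17A (blue). Points are estimates from limma over 13 libraries, lines are 95% confidence intervals and filled points have an adjusted p under 0.05. *Jag1* lies at 1.70 and 1.65 in the groups with DOX and at -1.13 with IL-17A alone.

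Adding IL-17A to DOX moved no member past the threshold. In DOX+IL-17A against DOX, 0 of the 9 members were called by limma, and 0 had an unadjusted p under 0.05 by limma, voom with limma, edgeR or DESeq2. Over all genes tested, 0.455% were called and 6.35% had an unadjusted p under 0.05 (limma). The log2 difference was -0.06 for *Jag1* (95% confidence interval -0.70 to 0.59), 0.16 for *Rbpj* (-0.24 to 0.55), 0.11 for *Adam10* (-0.49 to 0.71) and 0.16 for *Maml3* (-0.56 to 0.88). For *Notch1* it was -0.33 (-0.92 to 0.27), for *Ncor1* -0.30 (-0.69 to 0.10) and for *Hes1* -0.45 (-1.57 to 0.67). The groups of DOX and DOX+IL-17A overlapped for each of the 9, and did not overlap for 10.3% of all genes tested. These intervals leave room for changes of more than 1.5-fold in most members, so a like level in both groups is not shown.

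IL-17A alone likewise gave 0 calls among the 9 members, with 0.00812% of all genes tested called in IL-17A against control. *Jag1* came nearest, with a mean of 24.2 ± 12.8 (SD, n = 3) against 48.8 ± 1.85 (SD, n = 3) in control. Its log2 fold change was -1.13 (95% confidence interval -1.82 to -0.44), the adjusted p was 0.959 and the unadjusted p 0.00313 (limma). Every IL-17A library was below every control library (2-sided exact permutation, p = 0.1). *Jag1* was the 1 member with an unadjusted p under 0.05 in limma, edgeR and DESeq2, and voom with limma gave 2, where 3.08% of all genes tested had such a p in limma. *Rbpj* was also without overlap, with 872 to 1053 against 792 to 842 in control, a log2 fold change of 0.18 (-0.24 to 0.61, adjusted p = 0.959). Groups without overlap were thus seen for 2 of the 9 members and for 6.04% of all genes tested. The lowest *Jag1* value, 11.3 in IL-17A replicate 5, weighed on this difference, which was -0.69 on the log2 scale without that library.

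DOX+IL-17A against IL-17A compares cells with and without DOX in the presence of the cytokine. Of the 9 members, 4 were called, and over all genes tested 13.3% were, 6.51% higher and 6.75% lower. The mean of *Jag1* was 6.63 times as high (log2 fold change 2.78, SE 0.32, adjusted p = 0.000164, limma). *Rbpj* (-1.42, adjusted p = 0.000682), *Ncor1* (-1.13, adjusted p = 0.00261) and *Maml3* (-1.35, adjusted p = 0.0238) were lower. *Notch1* had a log2 fold change of -0.82 (adjusted p = 0.0828) and *Adam10* of -0.82 (adjusted p = 0.0845). The *Maml3* call was lost without DOX+IL-17A replicate 2 (adjusted p = 0.0972), IL-17A replicate 2 (0.0602) or IL-17A replicate 5 (0.0805). *Notch1* and *Adam10* were called without control replicate 1 (adjusted p = 0.036 and 0.0393), and *Adam10* also without DOX+IL-17A replicate 5 (0.0455).

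Whether IL-17A acted differently in cells given DOX was tested as an interaction. It was called for 0 of the 9 members and for 0% of all genes tested by limma, where 556 genes (4.51%) had an unadjusted p under 0.05. *Jag1* had the only unadjusted p under 0.05 among the members, 0.028, by limma, and each of the other tools gave 1 member too. The log2 difference of *Jag1* with IL-17A was -1.13 without DOX and -0.06 with it, and these differed by 1.07 (95% confidence interval 0.13 to 2.02, adjusted p = 0.901).

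Around the members, 61 other genes of the pathway had been listed by role, of which 55 were analysed and 53 tested, and the others (*Dll3*, *Dll4*, *Mfng*, *Dtx1*, *Hes5* and *Heyl*) were not analysed here. With DOX 2 rose and 8 fell, and with DOX+IL-17A 2 rose and 10 fell, that is 10 and 12 of 53 at backgrounds of 22.1% and 17.7%. The shares called were thus near the background. A fit of only the groups compared called 0 of these genes with DOX+IL-17A against control, so the DOX+IL-17A calls of single genes given here rest on the spread shared by all 4 groups. With DOX 6 genes were called without control replicate 5, DOX replicate 3 or DOX replicate 4, and with DOX+IL-17A 7 without control replicate 5 or DOX+IL-17A replicate 3 and 6 without DOX+IL-17A replicate 2. Shares of all genes tested called in these other fits are not given here. The median log2 fold change of the list was -0.08 with DOX, where that of all genes tested was 0.09, and -0.13 with DOX+IL-17A, where it was 0.04. With libraries scaled by size alone the median of all genes moved to 0.24 with DOX and 0.20 with DOX+IL-17A.

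*Dll1*, the delta ligand analysed, rose like *Jag1*, from a mean of 3.52 in control to 10.7 with DOX (log2 fold change 1.38, adjusted p = 0.0204, limma) and 11.5 with DOX+IL-17A (1.38, adjusted p = 0.0334). Of 9 genes that modify ligands and receptors, 2 fell, where 9.71% of all genes tested were called lower with DOX and 8.34% with DOX+IL-17A. *Lfng*, a fringe glycosyltransferase that changes which ligands a receptor answers, went from 11.9 to 2.41 with DOX (-1.80, adjusted p = 0.00952) and to 2.16 with DOX+IL-17A (-1.96, adjusted p = 0.011). *Furin*, the convertase that cuts the receptor precursor, went from 169 to 75.3 with DOX (-1.08, adjusted p = 0.0208) and to 79.3 with DOX+IL-17A (-1.04, adjusted p = 0.0401). Of the 8 other protease genes, *Adam17* and the gamma-secretase subunits, 0 were called in either comparison by limma, and 0 had an unadjusted p under 0.05, where 36.5% of all genes had one with DOX and 32.5% with DOX+IL-17A. The fall of *Adam10* was not accompanied by a call for any of these. Among 9 genes of trafficking and turnover, *Nedd4*, a ubiquitin ligase, went from 630 to 234 with DOX (-1.38, adjusted p = 0.00143) and to 257 with DOX+IL-17A (-1.27, adjusted p = 0.00483). *Fbxw7*, whose product marks the Notch intracellular domain for degradation, went from 61.4 to 28.4 with DOX+IL-17A (-1.05, adjusted p = 0.00883) and stood at 39.6 with DOX (-0.58, adjusted p = 0.08).

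Of 7 coactivator genes tested 2 fell with DOX and 3 with DOX+IL-17A. Of 13 corepressor genes 3 fell and 1 rose in each. Over all genes tested, 9.71% were called lower and 12.4% higher with DOX, and 8.34% and 9.37% with DOX+IL-17A. Each role holds few genes, so these counts are a description and not a result about a role. Among coactivators, *Maml2* went from 23.2 to 12.3 with DOX (log2 fold change -0.86, adjusted p = 0.0209, limma) and to 11.9 with DOX+IL-17A (-0.94, adjusted p = 0.0233). The acetyltransferase gene *Crebbp* went from 243 to 150 (-0.69, adjusted p = 0.024) and 140 (-0.83, adjusted p = 0.0169). Its relative *Ep300* fell with DOX+IL-17A, from 95.4 to 63.1 (-0.59, adjusted p = 0.0414), and stood at 70.7 with DOX (-0.43, adjusted p = 0.0922). Among corepressors, *Tbl1x* and *Tbl1xr1*, subunits of the NCoR complex, both fell with DOX, from 63.7 to 25.1 (-1.32, adjusted p = 0.00103) and from 103 to 55.4 (-0.84, adjusted p = 0.0207). With DOX+IL-17A they stood at 28.3 (-1.17, adjusted p = 0.00446) and 48.1 (-1.05, adjusted p = 0.0117). *Cir1*, a corepressor that binds RBPJ, fell with DOX+IL-17A, from 180 to 113 (-0.68, adjusted p = 0.0368). The deacetylase gene *Hdac1* went the other way, from 111 to 193 with DOX (0.82, adjusted p = 0.0107) and to 220 with DOX+IL-17A (0.999, adjusted p = 0.00670).

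**Figure D4:**
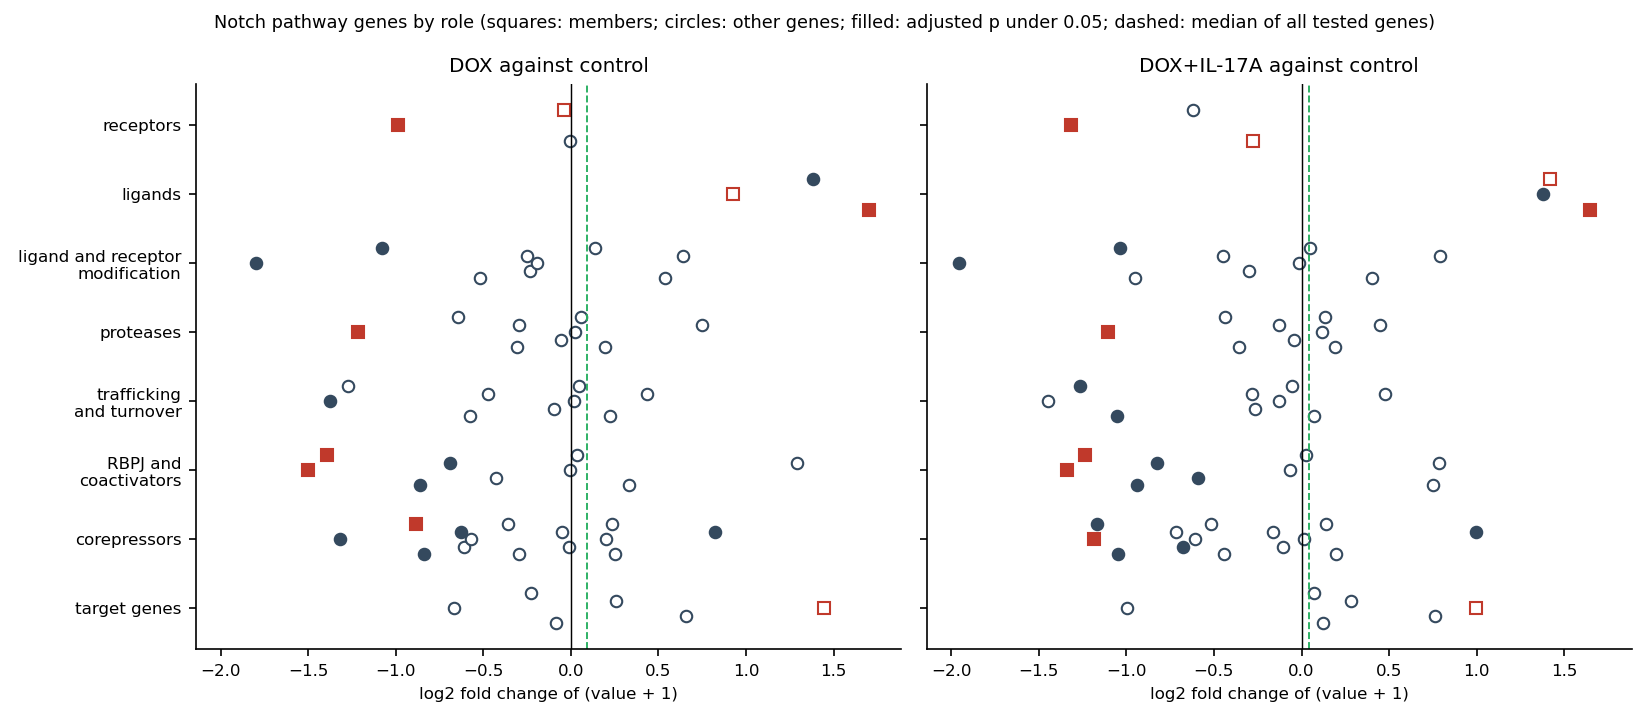
Log2 fold change of (normalized value + 1) against control, horizontal axis, of 9 members (squares) and 53 other Notch pathway genes (circles), by role, with DOX (left) and DOX+IL-17A (right). Each point is a gene, filled points have an adjusted p under 0.05 in limma, and the dashed line is the median of all genes tested. Of the other genes 10 are filled on the left and 12 on the right, and none of these is a protease or a target gene.

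Of the 5 target genes tested other than *Hes1*, limma called 0 in either comparison against control, and the unadjusted p was under 0.05 for 0 of them with DOX and for 1, *Hes7*, with DOX+IL-17A. *Nrarp*, a feedback inhibitor of the pathway, had a mean of 14.2 in control, 12.8 with DOX, 17.4 with DOX+IL-17A and 13 with IL-17A (adjusted p = 0.688 and 0.656 for DOX and DOX+IL-17A against control). *Ccnd1*, which encodes cyclin D1, had means of 890, 827, 928 and 1189 in the same order (adjusted p = 0.839 and 0.88), and *Myc* had 51.9, 58.7, 51.2 and 36.7 (adjusted p = 0.786 and 0.918). *Hes7* and *Hey1* were low, with group means of at most 1.65 and 1.51, and were not called either (adjusted p = 0.286 and 0.153 for *Hes7*, 0.255 and 0.237 for *Hey1*). In DOX+IL-17A against DOX and in IL-17A against control 0 of the 53 genes were called, and 0 had an unadjusted p under 0.05 by limma. Over all genes tested, 0.455% and 0.00812% were called in these comparisons, and 6.35% and 3.08% had such an unadjusted p. The groups did not overlap for 7 and 2 of the 53, against 10.3% and 6.04% of all genes tested.

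The genes whose pattern was most like that of *Notch1*, *Jag1* and *Hes1* were taken from the 6160 genes in the upper part by mean value, by the Pearson correlation of log2(value + 1) over the 13 libraries, which share 4 treatments. For *Notch1* they were *Ash1l* (r = 0.929), *Sorl1* (0.909) and *Nr2f1* (0.906). Within the 7 libraries with DOX these were 0.763, 0.792 and 0.703, and within the 6 without it 0.942, 0.752 and 0.847. For *Jag1* they were *Cldnd1* (0.949), *Mgme1* (0.948) and *Mrpl20* (0.936), and within the 7 libraries with DOX these fell to 0.664, 0.694 and 0.702. Within the 6 libraries without DOX they were 0.918, 0.856 and 0.598. For *Hes1* they were *Ptgr2* (0.965), *Atl2* (0.958) and *Depdc7* (0.951). *Ptgr2* kept 0.960 within the 7 libraries with DOX and 0.966 within the 6 without it. *Atl2* and *Depdc7* were at 0.739 and 0.848 with DOX, and at 0.991 and 0.972 without it. The third gene of each list changed with a pseudocount of 0.1.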

How the data were processed

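RNA of 13 libraries was prepared with a 3' mRNA kit and sequenced as single 75 base reads. Per the submitters' processing notes, FastQC, Trimmomatic, STAR, featureCounts and the mm10 genome were used. The authors deposited a signal per gene and library, which is reads scaled by TMM, with no read counts. All values (100%, within 0.01) were a whole number of steps of fixed size per library, which gave the reads used for the low-read filter and the count-based alternatives. Of 13223 entries, 1 identical repeat of *Ifit1* was dropped, and 17 gene names were stored as dates. Replicates of a group differed by more than sampling noise (chi-square per degree of freedom 7.68 to 178). The highest values, 178 and 117, were those of control replicate 1 against the other control libraries, which differed from each other by 24.9.

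limma with trend was fitted to log2(value + 1), with group as the only factor, over all 13 libraries (9 residual degrees of freedom) and the 12319 genes kept by filterByExpr. P-values were adjusted by Benjamini-Hochberg over all genes tested for 6 comparisons, and a gene with an adjusted p under 0.05 is said to be called. Adding 1 shrinks the fold change of genes with few reads. The script was tested on simulated data. Members, gene lists and tests were chosen with earlier results of these data known. Of the pathway list, genes called against control (up to 4 per role, lowest adjusted p first), ligands and targets are named. The result of 1 listed gene is not reported here. Alternatives were voom with limma, edgeR, DESeq2, scaling by library size or DESeq2 size factors, a block by replicate number, a fold above 2, leaving out each library, a pseudocount of 0.1, fitting only the groups compared, and testing all listed genes or those with 10 reads or more on average. Gene positions come from GENCODE M21 and start-site sequences from RefSeq (GRCm38.p6). The Thy1.1 construct was not analysed. Versions were limma 3.58.1, DESeq2 1.42.0 and edgeR 4.0.16 in R 4.3.3, and python 3.11.15, numpy 2.4.6, pandas 2.3.3, scipy 1.17.1 and matplotlib 3.10.9.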

Additional observations from a re-analysis of the deposited data

Results flagged for a closer look

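*Notch2* in DOX replicate 2 had a normalized value of 57.5, while the other DOX libraries lay between 27.1 and 31.1. The gap to its neighbour exceeded Dixon's critical value for 4 samples. *Notch3* in DOX replicate 4 had a normalized value of 0.447, from 5 reads, while the other DOX libraries held 0 reads, and exceeded the same critical value. With all other values at 0 any value above 0 exceeds it, so this flag says no more than the read counts do. Chance alone flags some groups at this 95% level. No call in the report rests on either value.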

How the results depend on the processing

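Over 54 member results (9 genes in 6 comparisons) and 1233 alternative values, 0 changed direction while called, 17 lost a call and 8 gained one, and 1208 kept their side of the threshold. The calls for *Jag1*, *Rbpj* and *Ncor1* against control held in each of the 10 other fits, and with each library left out. Members called numbered 5 to 7 with DOX, 4 to 7 with DOX+IL-17A and 3 to 6 in DOX+IL-17A against IL-17A with each library left out, and 0 to 0 in the other 3 comparisons. In a fit of only the groups compared 3 members were called with DOX+IL-17A against control. The share of all genes tested that was called in these other fits is not given here. These counts are therefore not a result about the members. The cause of the lost calls was not tested.

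In DOX+IL-17A against IL-17A limma called 8 of the 53 pathway genes tested (15.1%), near the 13.3% of all genes tested. For the pathway list, a fold above 2 left 5 genes with DOX and 7 with DOX+IL-17A. Of all genes tested it left 15.3% and 12.9%. It left 4 pathway genes in DOX+IL-17A against IL-17A. A fit of only the groups compared gave 0 genes with DOX+IL-17A against control and 5 against IL-17A, and DESeq2 gave 15 against IL-17A, where limma gave 8. With each library left out 6 to 11 genes were called with DOX, 6 to 13 with DOX+IL-17A and 2 to 15 against IL-17A, and 0 to 0 elsewhere. Shares of all genes tested called in these other fits are not given here, so the counts are not a result about the pathway. A fit of only the groups compared cannot be made for the interaction.

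The labels give groups some of the same replicate numbers. The deviations from the group mean of same-numbered libraries correlated over genes at 0.15 on average (13 pairs, -0.18 to 0.49, 8 of them over 0.1), against -0.04 (50 pairs, -0.56 to 0.47) for different numbers. Not every same-numbered pair was over 0.1, and control replicate 1 correlated best with IL-17A replicate 5 (0.47), so the numbers were not taken as pairs, though a shared source is not excluded. With the replicate number as a block (5 residual degrees of freedom), 5 members were called with DOX, 4 with DOX+IL-17A and 4 in DOX+IL-17A against IL-17A, and 5 pathway genes with DOX. The share of all genes tested called under the block is not given here either. *Notch1* with DOX (adjusted p = 0.0569), *Adam10* with DOX+IL-17A (0.0765) and *Maml3* with DOX+IL-17A (0.0795) were not called under the block.

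Depth limits *Notch3*, with 0 reads in 8 libraries, and *Jag2*, with 0 to 3 reads in the control libraries.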

Other observations

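*Notch4*, the remaining receptor gene, was low throughout. It held 4 to 12 reads in the control libraries, 0 to 12 with DOX, 0 to 2 with DOX+IL-17A and 7 to 36 with IL-17A, so no DOX+IL-17A library reached 3 reads and no fold is given. In DOX+IL-17A against IL-17A limma called it lower, as it did 6.75% of all genes tested. In the interaction it had an unadjusted p under 0.05 by limma, as did 4.51% of all genes tested, and was not called. *Notch4* was named after its values were seen.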
